A study of Mus musculus with 4 samples.

Results

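Epidermal transcription factors were examined in the skin of mice with bleomycin (BLM)-induced scleroderma. The 9 genes, Trp63, Klf4, Klf5, Grhl1, Grhl3, Ovol1, Zfp750, Cebpa and Hopx, were chosen by name as regulators of keratinocytes, and all 9 have a row among the 24441 genes of the deposited table. RNA had been sequenced from lesional skin of 2 GSDMD KO mice (genotype GSDMD-/-) and 2 wild-type (WT) mice, which are referred to as KO 1, KO 2, WT 1 and WT 2. All 4 were C57BL/6 females, listed at 8 weeks of age, that had received BLM under the skin on alternate days over 28 days. Both genotypes were thus treated, and no untreated skin was analysed here. Whether the 8 weeks refer to the start or the end of treatment was not established. BLM is a cytotoxic antibiotic that causes local fibrosis. The study's KO line was made with Cas9 in C57BL/6 embryos, and the labels name no clone or founder. Gasdermin D, the product of Gsdmd, is the protein that opens pores in the membrane during pyroptosis, an inflammatory form of cell death. The comparison asked how the skin transcriptome differed when this gene was missing.

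The epidermis renews itself from a basal layer whose cells divide, move up, stop dividing and build the cornified barrier. Trp63 encodes p63, the factor that holds basal cells in the stratified epithelial lineage. The Grainyhead-like factors Grhl1 and Grhl3, the zinc-finger proteins Klf4, Klf5, Ovol1 and Zfp750, the leucine-zipper protein C/EBP alpha (Cebpa) and the small homeodomain protein Hopx act on the way from proliferation to terminal differentiation. Several of them are also at work outside the epidermis, Cebpa in adipocytes and sebocytes and Klf4 in myeloid and vascular cells.

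The values were read as FPKM, fragments relative to transcript length and library depth, and fold changes were computed on log2(FPKM + 1), which understates the change of low genes. The spacing of the lowest values put the libraries at an estimated 12800000 to 17400000 fragments, and the 9 genes were then backed by 120 fragments (Grhl3 in WT 2) to 4781 fragments (Cebpa in WT 2). The targeted gene, Gsdmd, stood at 14.0 and 18.2 FPKM in WT 1 and WT 2 and at 3.53 and 2.26 FPKM in KO 1 and KO 2, below both WT libraries. Krt5 and Krt14, the keratins of basal keratinocytes, were abundant in every library, at no less than 764 FPKM. Acta1, the actin of skeletal muscle, was present at 3728 to 7681 FPKM as well, so the biopsies held more than epidermis. KO 2 stood apart from the other 3 libraries in markers of other cells. The summed level of 10 fibroblast markers was 59.0 FPKM in KO 2 against 281 to 607 FPKM in the others, and that of 8 endothelial markers 18.2 against 104 to 166 FPKM. The 10 macrophage markers summed to 2125 and 2203 FPKM in WT 1 and WT 2, 873 FPKM in KO 1 and 94.4 FPKM in KO 2, so they were lower in both KO libraries and lowest in KO 2. Their median log2 fold change was -2.63 (-1.09 without KO 2 and -3.95 without KO 1), in 8 of 10 of them the KO libraries lay below both WT libraries (20.5% of all tested genes), and their part in the values of the 9 genes was not tested. In KO 1 the summed level of 16 hair follicle markers was 387 FPKM, against 3.26 to 27.4 FPKM in the others. The values of the 9 genes are therefore also given without each KO library. All 9 were at 3.0 FPKM or above in every library, so none passed the filter on low values, 1 FPKM in 2 libraries, through one group alone.

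All 9 transcription factors had a higher mean in GSDMD KO mice than in WT mice, and 6 of them had means 1.86 to 3.85 times as high. On the log2 scale, 9 of 9 differences were above 0, where 58.6% of the 13027 tested genes were, and the median was 1.14 against 0.11 over all tested genes. Both KO libraries exceeded both WT libraries in 7 of the 9, an order found in 35.3% of all tested genes. The opposite order, with both KO libraries below, was found in 20.5% of all tested genes and in none of the 9, and the groups kept apart in either direction in 55.8%. Klf5 and Cebpa were the 2 genes whose groups overlapped. None of the 9 passed the threshold of the study, an adjusted p under 0.05 with an absolute log2 fold change above 1, and 0% of all tested genes did by limma. At an unadjusted p under 0.05 with the same limit on the fold change, 5 of the 9 (Trp63, Grhl1, Grhl3, Ovol1 and Zfp750) were higher in KO mice, as were 6.16% of all tested genes, while 4.14% of all tested genes and none of the 9 were lower. Klf4 also had an unadjusted p under 0.05, but with a log2 fold change under 1, so that 6 of the 9 were under this p, against 17.1% of all tested genes. These shares moved with single libraries. Without WT 2, 4 of the 9 (Grhl3 being the exception) and 2.04% of all tested genes were higher by this rule (266 genes higher and 242 lower), and without KO 1, the same 5 of the 9 and 10.8% (1412 higher and 1605 lower). The smallest two-sided p that an exact permutation of 2 against 2 mice allows is 0.333, so no such test was made. In whole skin, fewer or more keratinocytes and a different amount of RNA per keratinocyte cannot be told apart.

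**Figure D1:**
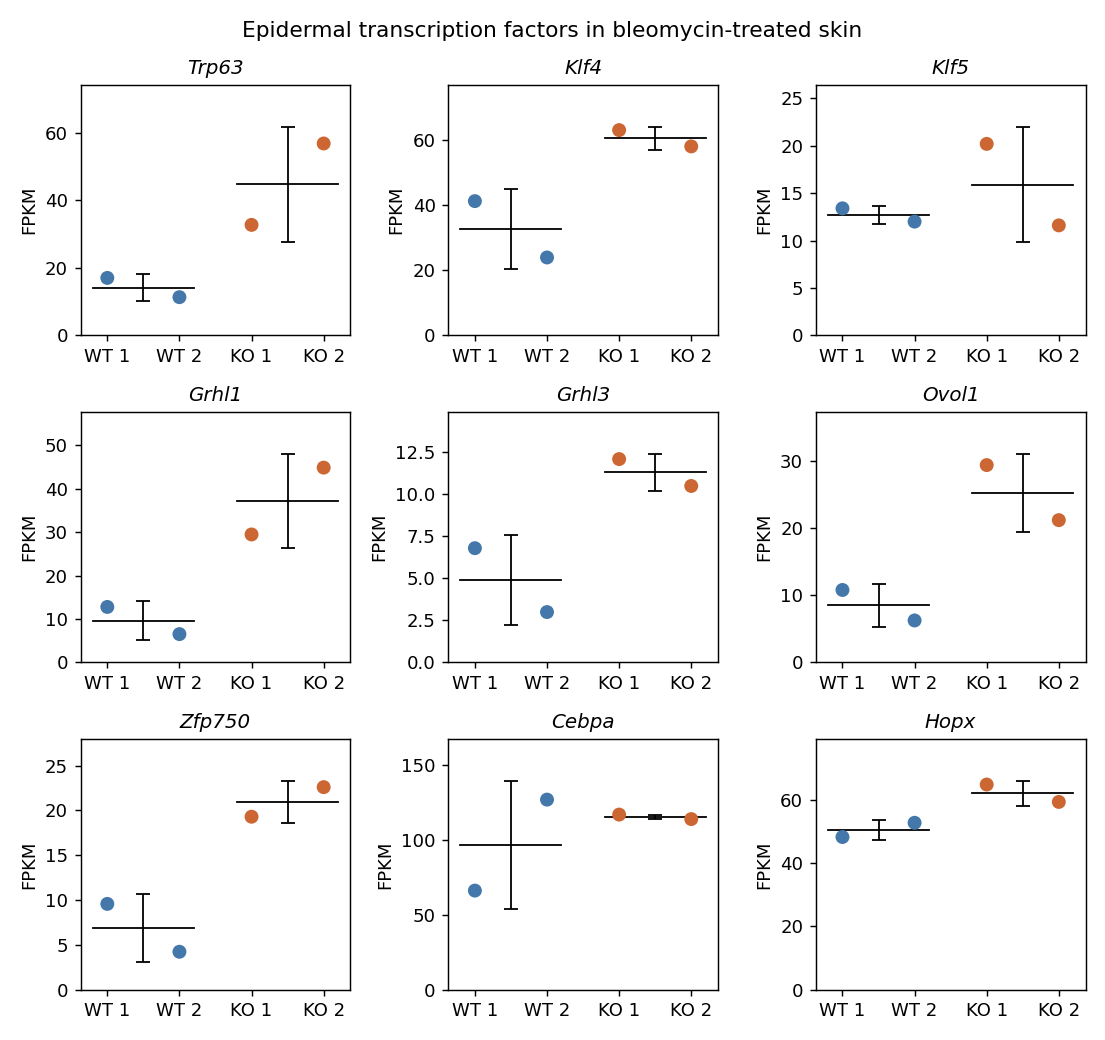
FPKM of each of the 9 transcription factors in the 4 libraries (points, blue for WT and orange for KO; lines, group mean; bars, SD, n = 2). The KO points lie above the WT points in all panels except Klf5, where KO 2 is lowest at 11.6 FPKM, and Cebpa, where WT 2 is highest at 127 FPKM.

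Trp63 (chromosome 16, 25683851 to 25892174 of mm9) was expressed at 17.0 and 11.3 FPKM in WT 1 and WT 2 and at 32.7 and 56.8 FPKM in KO 1 and KO 2. The lower KO library was above the higher WT library, and KO 2 was highest. Means were 14.1 ± 4.06 FPKM for WT and 44.7 ± 17.1 FPKM for KO mice (SD, n = 2), 1.57 ± 0.37 apart on the log2 scale (SE; limma, adjusted p = 0.248). This difference was larger than the gap within either group, which was 0.55 between the WT and 0.78 between the KO libraries on the same scale. The annotation lists 8 transcripts of Trp63, whose products include forms with and without the N-terminal transactivation domain, and the single value per gene does not separate them.

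Grhl1 (chromosome 12, 25257152 to 25302256), which binds genes of desmosomal cadherins, showed the largest difference of the 9 genes. It had 12.8 and 6.54 FPKM in WT 1 and WT 2 and 29.5 and 44.9 FPKM in KO 1 and KO 2, with KO 2 highest again. The mean of 9.67 ± 4.42 FPKM in WT mice compared with 37.2 ± 10.9 FPKM in KO mice (SD, n = 2), a log2 difference of 1.88 ± 0.40 (SE; limma, adjusted p = 0.248). Grhl3 (chromosome 4, 135097803 to 135129535), needed for barrier formation and wound closure, was the lowest of the 9 genes, with 6.80 and 3.0 FPKM in WT 1 and WT 2 and 12.1 and 10.5 FPKM in KO 1 and KO 2. Its KO libraries were close to each other and both were above WT 1. For Grhl3 the log2 difference between the groups was 1.14 ± 0.38 (SE; limma, adjusted p = 0.264), while its WT libraries were 0.96 apart.

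Ovol1 and Zfp750 act when keratinocytes leave the cell cycle and differentiate, and Zfp750 is a direct target of p63. Ovol1 (chromosome 19, 5549137 to 5560575) was at 10.8 and 6.26 FPKM in WT 1 and WT 2 and at 29.4 and 21.2 FPKM in KO 1 and KO 2, a log2 difference of 1.49 ± 0.34 (SE; limma, adjusted p = 0.248). Here KO 1, not KO 2, was the higher of the KO libraries. Zfp750 (chromosome 11, 121372290 to 121380656) had 9.57 and 4.23 FPKM in WT 1 and WT 2 and 19.3 and 22.6 FPKM in KO 1 and KO 2. The KO mean lay 1.56 ± 0.40 above the WT mean on the log2 scale (SE; limma, adjusted p = 0.248), and its WT libraries were 1.02 apart. For both genes the groups did not overlap.

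The Krüppel-like factors Klf4 and Klf5 differ in place in the epidermis, Klf4 being found in the upper layers where it is needed for the barrier and Klf5 in the basal, dividing cells. Klf4 (chromosome 4, 55540009 to 55545347) was at 41.2 and 23.9 FPKM in WT 1 and WT 2 and at 63 and 58.0 FPKM in KO 1 and KO 2. The groups did not overlap, and their log2 difference was 0.92 ± 0.33 (SE; limma, adjusted p = 0.273). Klf5 (chromosome 14, 99697910 to 99712628) was at 13.4 and 12.0 FPKM in WT 1 and WT 2 and at 20.2 and 11.6 FPKM in KO 1 and KO 2. KO 1 was the highest and KO 2 the lowest of the 4 libraries, so the groups overlapped. The log2 fold change of Klf5 was 0.26, with a 95% interval from -0.58 to 1.10 (limma, adjusted p = 0.680), which covers both no difference and a difference of the size seen for Klf4.

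Cebpa, which restrains keratinocyte division and drives adipocyte and sebocyte differentiation, was the most abundant of the 9 genes and did not separate the groups. It lies on chromosome 7 from 35904312 to 35906951 and had 66.2 and 127 FPKM in WT 1 and WT 2 and 117 and 114 FPKM in KO 1 and KO 2. The WT libraries were the highest and the lowest of the 4, and the KO libraries lay between them. The log2 fold change was 0.33, with a 95% interval from -0.60 to 1.26 (limma, adjusted p = 0.632). Adipocyte markers also differed between the WT libraries: 10 genes summed to 3994 FPKM in WT 1 and 10576 FPKM in WT 2, and to 4682 and 421 FPKM in KO 1 and KO 2. The part of these cells in the Cebpa values was not tested.

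Hopx, a homeodomain protein that does not bind DNA and is found in differentiating keratinocytes and hair follicle cells, differed little between libraries. It lies on chromosome 5 from 77516011 to 77544148 and had 48.3 and 52.8 FPKM in WT 1 and WT 2 and 64.9 and 59.4 FPKM in KO 1 and KO 2. Both KO libraries were above both WT libraries, by a small margin, and the log2 fold change was 0.29 with a 95% interval from -0.29 to 0.87 (limma, adjusted p = 0.503). An exon of Hopx shares 388 bases with the annotated gene Gm15830 on the opposite strand. Whether strand was used in the quantification is not given in the sources used here, so reads of the pair may be mixed. No other of the 9 genes shares exonic bases with an annotated gene.

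**Figure D2:**
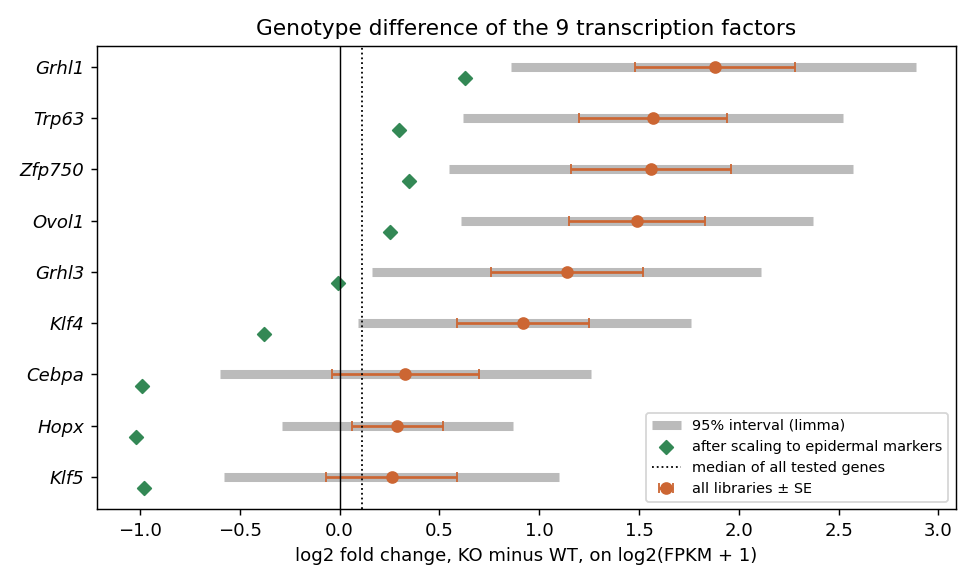
Log2 fold change between KO and WT mice on log2(FPKM + 1) for the 9 genes, with the standard error (orange bars) and the 95% interval of limma (grey), the median of all tested genes (dotted line, 0.11), and the value after the libraries were scaled to epidermal markers (green diamonds). The intervals of Cebpa, Hopx and Klf5 include 0 and those of the other 6 genes do not, and scaling moves every gene to the left.

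In level, the order of the means over the 4 libraries was Cebpa at 106.0 FPKM, Hopx at 56.3, Klf4 at 46.5, Trp63 at 29.4, Grhl1 at 23.4, Ovol1 at 16.9, Klf5 at 14.3, Zfp750 at 13.9 and Grhl3 at 8.11 FPKM, a comparison per length of transcript. Among neighbours in this order, the pairs that crossed between libraries both involved Klf5. It was above Ovol1 in both WT libraries and below it in both KO libraries, and it was above Zfp750 in all libraries except KO 2. The other neighbours kept their order in all 4 libraries, by as little as 29.5 FPKM of Grhl1 against 29.4 FPKM of Ovol1 in KO 1. Of the 9 genes, 6 were lowest in WT 2, 2 were lowest in WT 1 (Cebpa and Hopx) and 1 was lowest in KO 2 (Klf5). The highest value was in KO 1 for Klf4, Klf5, Grhl3, Ovol1 and Hopx, in KO 2 for Trp63, Grhl1 and Zfp750, and in WT 2 for Cebpa. The KO libraries shared a mean level, with the 9 genes at 5.15 in KO 1 and 5.14 in KO 2 on the log2 scale against 4.31 and 3.87 in WT 1 and WT 2. Which of the KO libraries was higher differed from gene to gene.

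Promoters were looked up in the RefSeq promoter table of build GRCm38.p6, which held entries for 5 of the 9 genes, namely Klf4, Grhl1, Grhl3, Cebpa and Hopx. The entries are in that build and not in mm9, and the 250 bases before a transcript start were used. The promoters of Klf4, Grhl1 and Grhl3 are shown as those of 3 genes whose KO libraries lay above the WT libraries with an unadjusted p under 0.05, and that of Cebpa as one of a gene whose groups overlapped. Capitals mark CCNCNCCC on either strand, a letter pattern of the CACCC and GC boxes bound by Krüppel-like factors, and overlapping matches are merged. The windows lie on the minus strand at chr4:55532476-55532725 (Klf4) and chr4:135573633-135573882 (Grhl3) and on the plus strand at chr12:24572037-24572286 (Grhl1) and chr7:35119043-35119292 (Cebpa).
Klf4: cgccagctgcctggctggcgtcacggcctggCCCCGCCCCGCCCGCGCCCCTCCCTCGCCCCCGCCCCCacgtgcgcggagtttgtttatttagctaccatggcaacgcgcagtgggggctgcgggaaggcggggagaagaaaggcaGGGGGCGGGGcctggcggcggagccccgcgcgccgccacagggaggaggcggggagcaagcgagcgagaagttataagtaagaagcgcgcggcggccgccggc
Grhl1: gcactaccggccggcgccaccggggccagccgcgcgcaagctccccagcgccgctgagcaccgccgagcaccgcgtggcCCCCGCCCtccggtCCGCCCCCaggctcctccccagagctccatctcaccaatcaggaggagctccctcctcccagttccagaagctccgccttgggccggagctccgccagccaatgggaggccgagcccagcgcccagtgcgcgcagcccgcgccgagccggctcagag
Grhl3: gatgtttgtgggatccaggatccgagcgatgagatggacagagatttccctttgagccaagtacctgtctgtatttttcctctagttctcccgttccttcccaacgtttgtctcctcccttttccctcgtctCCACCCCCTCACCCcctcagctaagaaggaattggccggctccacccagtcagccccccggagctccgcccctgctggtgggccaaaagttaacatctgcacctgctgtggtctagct
Cebpa: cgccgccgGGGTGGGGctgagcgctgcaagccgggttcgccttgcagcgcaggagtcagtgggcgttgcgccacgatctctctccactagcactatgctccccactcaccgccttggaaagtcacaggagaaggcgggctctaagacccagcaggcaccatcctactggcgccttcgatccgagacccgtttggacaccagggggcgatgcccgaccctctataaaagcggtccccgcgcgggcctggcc
The pattern was found 9 times in the Klf4 window, where 7 matches overlap in one C-rich run, 2 times each in those of Grhl1 and Grhl3 and 1 time in that of Cebpa. It was in 4 of the 7 windows listed for the 5 genes, and in 45.9% of all 32851 windows of the table, so it is a common pattern. It was in neither of the 2 windows of Hopx, nor in the other start of Grhl1. The Grainyhead-like pattern AACCNGTT (1.79% of all windows), the C/EBP pattern TTGCNNAA (9.56%) and the p53-family half-site (7.13%) were in 0 of the 7 windows.

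For the 6 genes with the lowest p-values the direction held without either KO library, but sizes and calls moved. Without KO 2, the log2 fold change of Trp63 was 1.18, that of Grhl1 1.58, that of Zfp750 1.45, that of Ovol1 1.71, that of Grhl3 1.23 and that of Klf4 0.98, and none of the 9 genes was called, against 0.33% of all tested genes. Without KO 1, Trp63 (1.96, adjusted p = 0.0117), Grhl1 (2.17, adjusted p = 0.0136) and Zfp750 (1.67, adjusted p = 0.0430) were called by limma, where 6.59% of all tested genes were called higher and 15.8% in either direction. In that fit the KO group is 1 library, which is assumed to vary like the WT group. Without WT 2, the library in which 6 of the 9 genes were lowest, the differences of these 6 fell between 0.54 (Klf4) and 1.44 (Grhl1). Klf5 stood at -0.12 without KO 1 and at 0.63 without KO 2, and Cebpa at -0.14 without WT 1 and at 0.79 without WT 2, so neither kept its direction with each library left out.

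Basal keratinocyte and epithelial junction markers were higher in the KO libraries along with the 9 genes. All 10 tested basal keratinocyte markers had a positive log2 fold change (median 0.96), and in all 10 both KO libraries were above both WT libraries, as in 35.3% of all tested genes. All 15 epithelial junction markers were positive as well (median 1.63, 12 of 15 with both KO libraries above). None of these 25 genes passed the adjusted threshold by limma. With each library left out in turn, the basal median lay between 0.89 and 1.06 and the junction median between 1.21 and 2.25. Krt14 was at 1293 and 1215 FPKM in WT 1 and WT 2 and at 2689 and 2735 FPKM in KO 1 and KO 2, and the epithelial adhesion gene Epcam was at 24.8 and 11.2 FPKM against 68.6 and 101.0 FPKM. The basal list summed to 2287 and 2208 FPKM in WT 1 and WT 2 against 4841 and 5280 FPKM in KO 1 and KO 2, and the junction list to 653 and 349 against 1416 and 1621 FPKM, with no marker at 0. Suprabasal and cornified markers behaved differently in KO 2. Of 19 tested genes, 18 were highest in KO 1, and only 4 had both KO libraries above both WT libraries. The median log2 fold change of the 19 genes, 0.55, became -0.21 without KO 1, 1.34 without KO 2 and 0.04 without WT 2. Lor, which encodes loricrin of the cornified envelope, was at 1450 and 810.0 FPKM in WT 1 and WT 2, at 2844 FPKM in KO 1 and at 155 FPKM in KO 2.

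**Figure D3:**
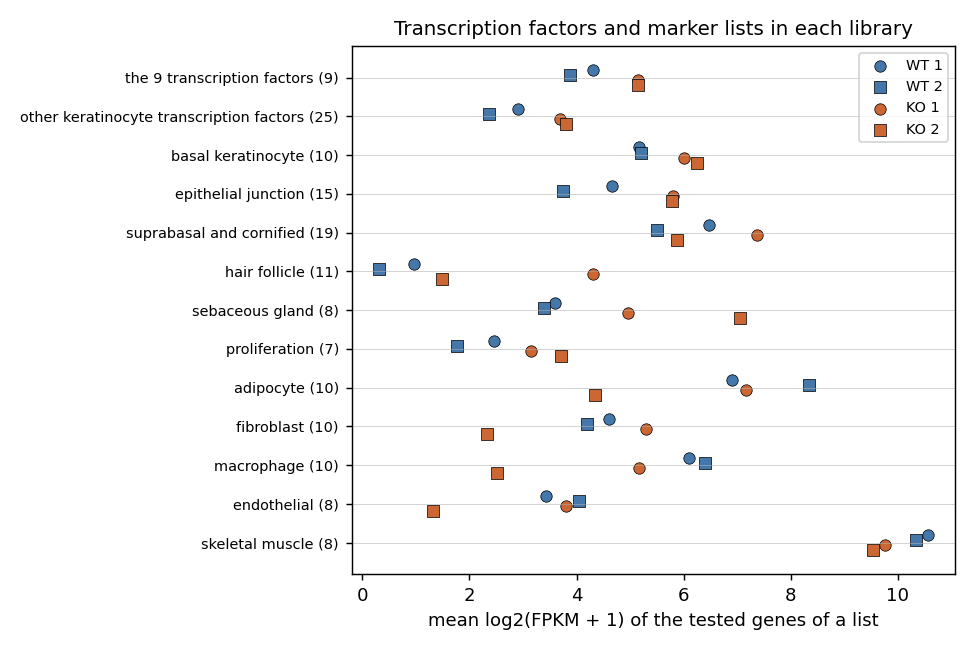
Mean log2(FPKM + 1) of the tested genes of each list (number in brackets) in WT 1, WT 2, KO 1 and KO 2. The 9 transcription factors, the other keratinocyte factors and the basal and junction lists are higher in both KO libraries, while fibroblast, endothelial, macrophage and adipocyte lists are lowest in KO 2 and the hair follicle list is highest in KO 1.

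Relative to the 25 basal and junction markers of the same library, the 9 genes together were not higher in KO than in WT mice, and 4 of them had a higher mean. Their mean relative level on the log2 scale was -0.55 and -0.46 in WT 1 and WT 2 and -0.74 and -0.84 in KO 1 and KO 2. The basal mean was at 5.16 and 5.21 in WT 1 and WT 2 and at 6.01 and 6.25 in KO 1 and KO 2. The junction mean was at 4.67 and 3.75 against 5.81 and 5.79, and that of the 9 genes at 4.31 and 3.87 against 5.15 and 5.14. The 9 genes were thus lower in both KO libraries when compared with the junction markers alone. Compared with the basal markers alone, the groups overlapped. Relative to all 25 markers, Cebpa, Hopx, Klf5 and Klf4 were lower in both KO libraries than in both WT libraries. Hopx, for example, was at 0.76 and 1.41 in WT 1 and WT 2 and at 0.15 and -0.06 in KO 1 and KO 2, and Klf5 was at -1.02 and -0.63 against -1.48 and -2.32. Grhl1 was the only one of the 9 that was higher in both, at -1.08 and -1.42 in WT 1 and WT 2 and at -0.96 and -0.46 in KO 1 and KO 2. Trp63 was at -0.70 and -0.72 in WT 1 and WT 2, at -0.82 in KO 1 and at -0.12 in KO 2. When the libraries were scaled to these markers, the median over all tested genes moved from 0.11 to -1.03, 84.4% of all genes had both KO libraries below both WT libraries, and 2.47% had both above. On that scale Klf5, Cebpa and Hopx lay at -0.98, -0.99 and -1.02, next to the median of all genes, and Grhl1 at 0.63, Zfp750 at 0.35, Trp63 at 0.30, Ovol1 at 0.25, Grhl3 at -0.01 and Klf4 at -0.38 were above it. None of the 9 genes was called on that scale by limma, where 48.4% of all tested genes were. Several of these markers, Krt5, Krt14 and Perp among them, are themselves known targets of p63.

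The choice of markers decided the direction of the relative level. Against the 19 suprabasal and cornified markers, the mean difference between KO and WT mice was 0.42 on the log2 scale in place of -0.28. The change came with KO 2, where Trp63 was at -0.01 and Grhl1 at -0.35 relative to these markers. In the other 3 libraries Trp63 was between -2.31 and -1.89 and Grhl1 between -2.69 and -2.45.

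**Figure D4:**
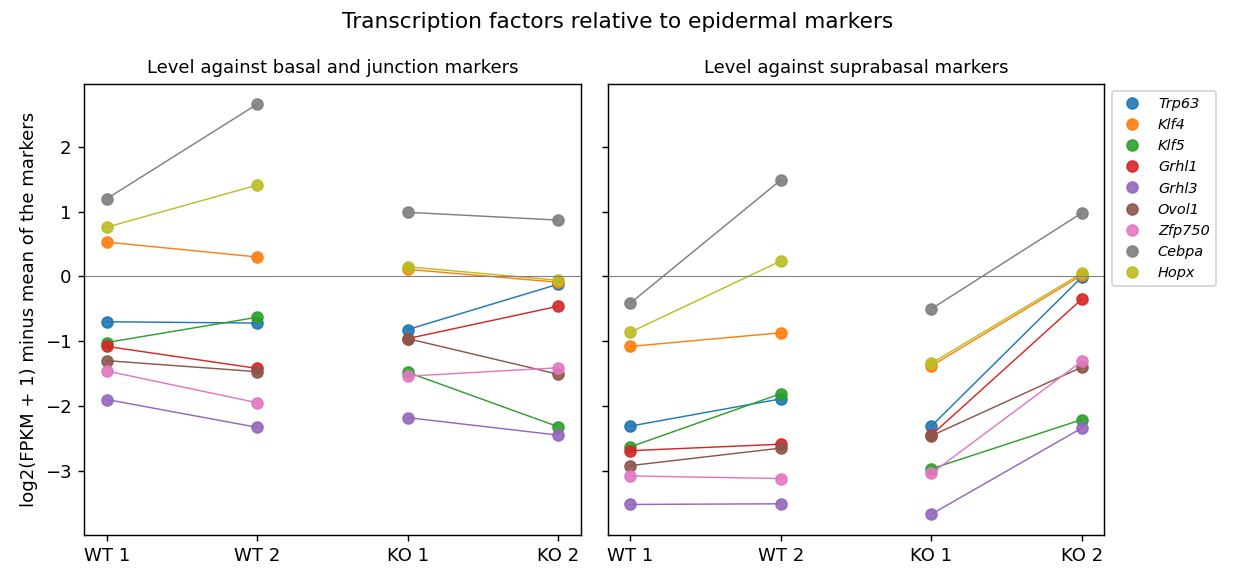
Log2(FPKM + 1) of the 9 genes minus the mean of the basal and junction markers (left) or of the suprabasal and cornified markers (right) of the same library, with thin lines joining the 2 libraries of a genotype. On the left the genes spread around their WT level, with Klf5, Hopx, Klf4 and Cebpa lower in both KO libraries; on the right all 9 genes are higher in KO 2 than in KO 1.

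Genes known as targets of these factors were examined next. Of 12 tested targets of p63, 11 had a positive log2 fold change, 8 of them above 1 with an unadjusted p under 0.05 (6.16% of all tested genes), and the median was 1.10 (1.02 to 1.15 with each library left out). Perp, a desmosomal p63 target, was at 277 and 144 FPKM in WT 1 and WT 2 and at 575 and 820.0 FPKM in KO 1 and KO 2. Satb1, a chromatin organiser downstream of p63, was the exception, at 7.23 and 5.97 FPKM in WT 1 and WT 2 and at 4.60 and 3.98 FPKM in KO 1 and KO 2. Of the 6 targets of Grainyhead-like factors, 6 had a positive log2 fold change (median 1.33), and 3 were above 1 with an unadjusted p under 0.05. Without KO 1, however, 4 of the 6 were positive (median 0.95), and without WT 2, 5 of the 6 (median 0.79). Cdh1, which encodes E-cadherin, differed by 1.84 ± 0.41 (SE) on the log2 scale, and the transglutaminase gene Tgm1 by 0.27 ± 0.58, with 36.8 FPKM in KO 1 and 11.2 FPKM in KO 2. None of the targets passed the adjusted threshold by limma. The lists share genes with the marker lists, so they are not separate observations.

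Other transcription factors of keratinocytes showed the same order. Of 25 such genes, Ovol2 was tested only because both KO libraries were above 1 FPKM, which fixed its direction. Of the other 24, 22 had a positive log2 fold change, 16 had both KO libraries above both WT libraries (35.3% of all tested genes), 13 were above 1 with an unadjusted p under 0.05 (6.16%), and 0 passed the adjusted threshold. The median of the 24 was 1.21. With each library left out in turn, 20 (without KO 1) to 25 of the 25 were positive, and their median lay between 1.05 and 1.65. These values include Ovol2, which the filter made positive in each case. Vdr, the vitamin D receptor, had the largest log2 difference of the list, 2.31 ± 0.39 (SE; limma, adjusted p = 0.248), with 6.98 and 4.60 FPKM in WT 1 and WT 2 and 23.4 and 43.8 FPKM in KO 1 and KO 2. The AP-2 genes Tfap2a, Tfap2b and Tfap2c followed with 2.24, 2.14 and 1.99. Of the 25 genes, 16 were highest in KO 2 and 8 in KO 1. Ovol2 is among the 16, and the filter had fixed that its highest library was a KO library.

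Relatives of the 9 genes by sequence did not share one direction. Of 24 paralogs, 18 were tested, 2 of them, Ovol2 and Cebpe, only through the group in which they were higher. Of the other 16, 7 had a positive and 9 a negative log2 fold change, with a median of -0.08. Over the 18 the median was also -0.08, and it was 0.18 without WT 1 and 0.10 without KO 2. These medians over the 18 include Ovol2 and Cebpe, whose direction the filter had fixed, upward for Ovol2 and downward for Cebpe. With a library left out, no median of the other 16 is given, so these values do not show how the 16 alone moved. The epithelial relative Grhl2 and the p53-family gene Trp73 had log2 fold changes of 1.63 and 1.38. Grhl2, which keeps epithelial junctions, was at 2.15 and 1.17 FPKM in WT 1 and WT 2 and at 4.69 and 10.4 FPKM in KO 1 and KO 2. Klf2, a factor of endothelial and immune cells, was at 34.0 and 50.9 FPKM in WT 1 and WT 2 and at 23.3 and 5.09 FPKM in KO 1 and KO 2, a log2 difference of -1.81 ± 0.69 (SE; limma, adjusted p = 0.286). The endothelial and macrophage markers were lowest in the same library, KO 2, and their part in the Klf2 value was not tested. Cebpb, a partner of C/EBP alpha in keratinocytes, was at 22 and 40.9 FPKM in WT 1 and WT 2 and at 50.8 and 63.7 FPKM in KO 1 and KO 2, without the overlap seen for Cebpa.

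**Figure D5:**
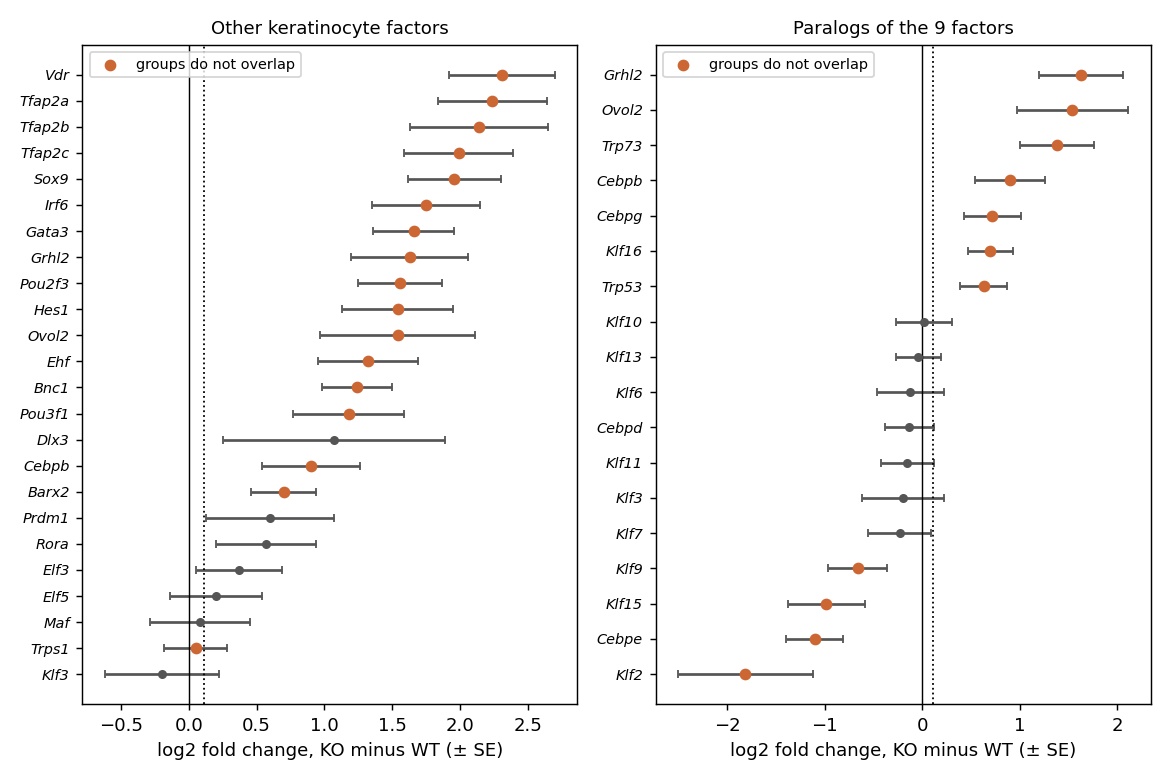
Log2 fold change between KO and WT mice, with its standard error, for 24 of the 25 other keratinocyte transcription factors (left) and for 18 tested paralogs of the 9 genes (right). Orange points have KO and WT libraries that do not overlap, and the dotted line is the median of all tested genes (0.11). Most points on the left lie right of the line, and the points on the right lie on both sides of it. The direction of Ovol2 (left and right) and of Cebpe (right) was fixed by the filter on low values.

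The genes with the profile most like the mean of the 9 over the 4 libraries were found by the distance between centred log2 values, as a description over 4 points. Among the 25 other keratinocyte factors, the nearest were Bnc1, a zinc-finger gene of basal keratinocytes (distance 0.31), Barx2 (0.36), Ehf (0.44), Pou3f1 (0.56) and Pou2f3 (0.58). Among 8748 tested genes with a mean of at least 5 FPKM, the nearest were Gm3219, Fmr1, Rapgefl1, Pak6 and Epha1, at distances of 0.0327 to 0.101. Of the 9 genes themselves, Klf4 (0.27) and Grhl3 (0.40) were closest to their common profile, and Cebpa (1.21) was farthest.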

How the data were processed

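Whole-skin RNA-seq of 2 WT and 2 GSDMD KO mice was used, with groups and replicate numbers from the labels. The paper's methods describe alignment to mm9 and counting of reads per gene with featureCounts, and the submitters' processing notes name HISAT2 version 2.0.1 and StringTie version 2.0.6. The deposited table is described as counts, but with 99.993% of its values above 0 not whole (compared exactly, with no tolerance) it was read as FPKM that the authors had already scaled by transcript length and depth. The study's DESeq2 test needs counts and could not be repeated. The depth, which limits the precision, was estimated from low values of 2744 long genes annotated with 1 transcript, and it gave no interval.

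Of 24441 genes, the 13027 that reached 1 FPKM in 2 or more libraries were fitted by genotype on log2(FPKM + 1) using limma (version 3.58.1, R 4.3.3) with a mean-variance trend and Benjamini-Hochberg adjustment over all tested genes. Calls took the study's threshold. The sources do not say how the libraries of a group relate beyond their labels, so p-values measure only the spread between these libraries. The 9 genes and all lists were chosen with earlier results of these data known, and no list test was run. The genes named are the 9, Gsdmd, paralogs, genes with the most similar profile and, per list, those with the largest rise or fall or the highest level. Krt5, Tgm1, the AP-2 genes and others outside this rule were named after their values were seen. Lor, Perp, Satb1 and Cdh1 meet the rule within their lists. Another gene of the list of other keratinocyte factors is counted with its list but not reported here by name.

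Gene positions were taken from the deposited table with 1 added to its start, since 9842 of 20132 genes found in GENCODE for mm9 then begin at the annotated base, against 571 without it. The sources do not tie the replicate numbers to litters or batches, so the libraries were taken as unpaired. Same-numbered WT and KO libraries deviated from their group means with a correlation of -0.20. Crossed numbers give 0.20 by construction with 2 libraries per group, so these values cannot decide whether libraries are paired. Alternatives were other pseudocounts, filters, scalings and variance models, a replicate block and leaving out each library. A crossed block was added after the data had been seen. Promoters came from RefSeq, and those of Trp63, Klf5, Ovol1 and Zfp750 were not used here. Python 3.11.15 with pandas 2.3.3 was used for the tables.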

Additional observations from a re-analysis of the deposited data

How the results depend on the processing

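With 2 libraries per group, 1 library decided several values. Leaving out each library in turn gave 0 to 2058 called genes, 0 to 3 called genes among the 9 and a median log2 fold change of the 9 genes between 0.79 and 1.62. The 2058 calls came without KO 1, and without KO 2 there were 43. With unadjusted in place of adjusted p-values, 1341 genes and 5 of the 9 would pass. Scaling the libraries to epidermal markers gave 6305 called genes, 6264 of them lower, none of the 9 among them, and moved the median of the 9 genes to -0.01, with Cebpa at -0.99, Hopx at -1.02, Klf5 at -0.98, Klf4 at -0.38 and Grhl3 at -0.01, each on the other side of 0; the median of all tested genes moved with it, to -1.03. With single libraries left out, Klf5 ranged from -0.12 (without KO 1) to 0.63, and Cebpa from -0.14 (without WT 1) to 0.79. The relative level of the 9 genes was 0.42 with suprabasal markers as the reference. Upper-quartile and median-ratio scaling kept the direction of the 9 genes and their side of the threshold, but the split of unadjusted calls over all genes, 802 higher and 539 lower, became 656 and 667 or 633 and 708. With the replicate number as a block, 0 genes and 0 of the 9 were called, and 907 genes were higher and 686 lower at the unadjusted p; the median of the 9 genes was 1.14. Crossed numbers gave 0 calls, with 819 higher and 681 lower. Other pseudocounts and filters and a fit without the trend changed no call of the 9 genes.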

Other observations

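Other gene groups of the epidermis and its appendages were compared as well, and none held a gene past the adjusted threshold by limma. Of 7 tested proliferation genes, 7 had both KO libraries above both WT libraries (35.3% of all tested genes), with a median log2 fold change of 1.38 (0.99 to 1.76 with each library left out). Mki67 was at 2.72 and 1.03 FPKM in WT 1 and WT 2 and at 5.80 and 14.8 FPKM in KO 1 and KO 2. Wound-associated keratins did not share a direction: Krt17 was at 360.0 and 201 FPKM in WT 1 and WT 2 against 953 and 530.0 FPKM in KO 1 and KO 2, and Krt6b at 173 and 36.7 against 126 and 11.2 FPKM. Of these 4 keratins, 3 had a positive log2 fold change (median 0.64). All 4 were positive without WT 1 (median 1.27) or without KO 2 (1.43), and 2 without WT 2 or without KO 1 (-0.16 in each).

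Sebaceous gland genes, which mark cells that also use Cebpa, differed widely between the KO libraries. Of 8 genes, 6 had both KO libraries above both WT libraries (35.3% of all tested genes). Their median log2 fold change was 2.86, and it was 1.69 without KO 2 and 4.02 without KO 1. Fa2h, which hydroxylates fatty acids, was at 18.4 and 8.44 FPKM in WT 1 and WT 2, at 111 FPKM in KO 1 and at 617 FPKM in KO 2. Scd1 was highest in WT 2, at 1685 FPKM, as Cebpa was, but the other 7 genes were highest in KO 2. In 5 of the 8 the lowest value was in WT 2, and the part of these cells in the Cebpa values was not tested. Of 11 tested hair follicle genes, 10 were highest in KO 1. However, 4 of the 11 (Krt28, Krt35, Krt85 and Msx2) were tested only because both KO libraries were above 1 FPKM. This fixed that their highest library was a KO library, though not which one, and no count of direction is given. Krt27 was at 57.8 FPKM in KO 1, listed at 0 in WT 2 and at 1.04 and 0.984 FPKM in WT 1 and KO 2. Muscle genes were lower in KO mice in 8 of 8 cases, with a median of -0.73 (-1.03 to -0.64 with each library left out), and in 6 of them the KO libraries lay below both WT libraries, as in 20.5% of all tested genes.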
